A study of Rattus norvegicus with 9 samples.

Results

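The expression of 9 genes of T cell receptor signalling was followed in rat liver after total-body irradiation (TBI), with and without Hong Shan Capsule (HSC) given beforehand. They were Cd3d, Cd3e, Cd3g, Cd2, Cd5, Cd8a, Lck, Zap70 and Lat. They were chosen by symbol, with earlier results of these data known, and found through the RefSeq accession that the array gives for each probe. They make up 9 of the 13438 genes that could be named on the array, and each was read by 1 probe. HSC is a herbal mixture used against radiation injury. The 9 animals were male Wistar rats of unstated age with no genetic change named in the sources, 3 in each group. Control rats received neither radiation nor HSC. TBI rats received 6.5 Gy from a 60Co source at 2 Gy per minute, and HSC + TBI rats were given the capsule contents in water by stomach tube on 3 consecutive days and then the same exposure. The stated daily HSC dose differs between the records, 30 mg per kg of body weight in the sample records and 10 g per kg in the series record. No rats given HSC without radiation were analysed here, so every HSC value below is from irradiated rats. Livers were taken 24 hours after exposure, and labelled cRNA made from total RNA was hybridised to a one-colour whole-genome rat array.

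The T cell receptor recognises peptides on other cells but cannot signal by itself. It relies on the CD3 chains (Cd3d, Cd3e, Cd3g) and the zeta chain (Cd247), whose cytoplasmic tails are phosphorylated by the kinase Lck, which is brought in by the coreceptors CD4 and CD8. The kinase Zap70 then docks on the phosphorylated tails and phosphorylates the adaptor Lat, from which calcium, Ras and NF-kB signals start. Liver holds resident and blood-borne lymphocytes, and lymphocytes are among the most radiosensitive cells of the body.

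All values are log2 of the processed signal after quantile normalisation, so a difference of 1 is a doubling of signal. Signals of different probes are not on one scale, and the groups are therefore compared only within a gene. A difference was called at a limma adjusted p under 0.05 (Benjamini-Hochberg over 25369 tested probes) with a fold change of at least 1.5. The test took 7 members, those that every array of some group read above background, while Cd3e and Cd5 never rose above it. The share of probes above background was 56.6 to 59.3% on control arrays, 63.6 to 69.5% on TBI arrays and 58.7 to 60.5% on HSC + TBI arrays. The control arrays shared 1 slide, the TBI arrays another, and the HSC + TBI arrays lay on 2 further slides, so slide and group cannot be told apart in any of the comparisons. A list of 10 hepatocyte genes, such as the glucocorticoid-induced enzyme gene Tat, had a mean log2 signal between 15.1 and 15.5 in every rat. It was 15.13 to 15.25 in controls, 15.23 to 15.48 in TBI rats and 15.34 to 15.49 in HSC + TBI rats. The HSC + TBI rats thus lay slightly above the controls.

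Of the 7 tested members, 3 (Cd3g, Cd2 and Lat) were lower in TBI rats than in controls, where 3.71% of all tested probes were called lower, and none was higher, where 3.54% were called. Likewise 3 of 7 (Cd3g, Lat and Zap70) were lower in HSC + TBI rats than in controls, against 2.05% of probes called lower and 1.19% called higher. In the third comparison 1 of 7, Cd2, was higher in HSC + TBI than in TBI rats, where 0.233% of probes were called higher and 0.564% lower. Cd3g and Cd2 were above background on every array in controls alone, so they were tested because of their signal there. For both genes the filter thus favoured calls of a signal lower than control. Among probes above background on all 9 arrays, 1 of 3 members (Lat) was called lower after TBI. There 1396 of 21750 probes were called in either direction. The median difference of the 7 tested members was -0.90 for TBI against control and -1.32 for HSC + TBI against control, while the medians over all tested probes were -0.01 and 0.05. For HSC + TBI against TBI the medians were -0.15 for the members and 0.06 for all probes. As the members were chosen with earlier results of these data known, these counts and medians only describe them. In whole liver, fewer T cells or other cells that make these RNAs and less of the RNAs per cell cannot be told apart.

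**Figure D1:**
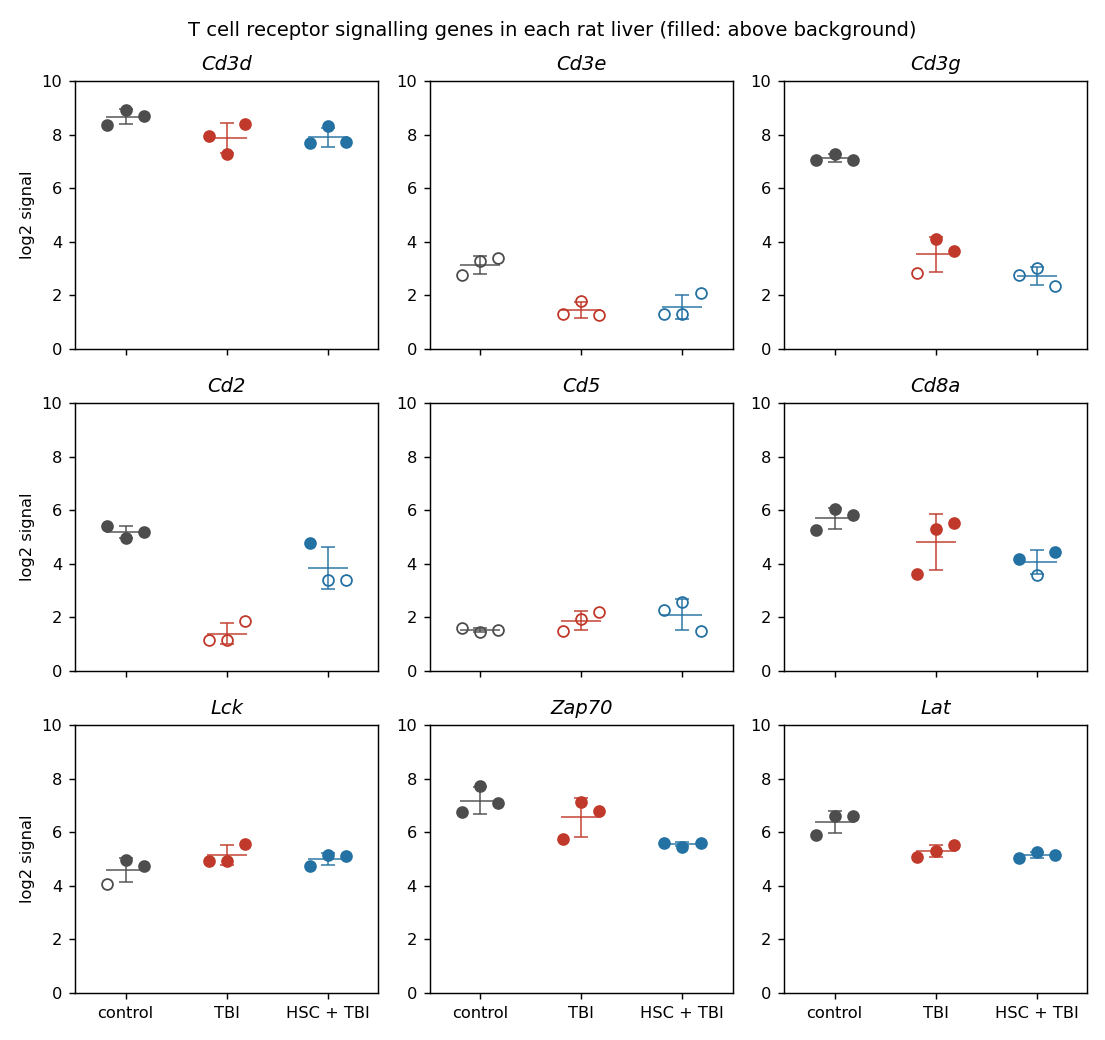
Log2 signal of each of the 9 genes in each rat (points, replicates 1 to 3 from left to right), with the mean and SD of each group of 3 rats; open points were not above background. Cd3g lay above 7 in the 3 controls and between 2.34 and 4.10 in all 6 irradiated rats, while Lck showed no such gap and Cd3e and Cd5 were open throughout.

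The 3 CD3 genes lie together on chromosome 8. Cd3g encodes the gamma chain of the receptor complex and gave the lowest adjusted p of the members. Its log2 signal was 7.04, 7.28 and 7.06 in controls 1 to 3, 2.81, 4.10 and 3.65 in TBI rats 1 to 3, and 2.77, 3.00 and 2.34 in HSC + TBI rats 1 to 3. No irradiated rat came near a control, and the signal was above background in 2 of 3 TBI rats and in none of the HSC + TBI rats. The probe was tested because of its signal in controls, so the filter favoured calls of a lower signal in irradiated rats. Cd3g fell by 3.60 after TBI (SE 0.31, limma adjusted p = 0.000685), a value that includes TBI rat 1 below background. In HSC + TBI rats the difference from control was -4.43 (SE 0.31, limma adjusted p = 0.000297). As the probe was not well above background there, its signal is given as at least 11.4-fold lower than in controls. This bound, like each such fold below, is approximate and leaves out the spread between rats. Both calls were made without any 1 of the 9 rats, with differences from -3.89 to -3.25 and from -4.57 to -4.24. With normexp background correction, which adds a fixed offset before the log, they were also made, at the smaller differences of -1.07 and -1.14. HSC + TBI and TBI rats differed by -0.82 (95% confidence interval -1.53 to -0.12, limma adjusted p = 0.241), and their values overlapped. Without TBI rat 1 this difference was -1.18 and was called (limma adjusted p = 0.0362).

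Cd3d, the delta chain gene, differed less between groups. Its log2 signal was 8.37, 8.92 and 8.69 in controls, 7.95, 7.27 and 8.41 in TBI rats, and 7.69, 8.31 and 7.71 in HSC + TBI rats, above background in all 9. TBI rat 3 overlapped the controls, whereas the HSC + TBI rats all lay below them. Neither difference from control passed the test, with -0.79 for TBI (95% confidence interval -1.47 to -0.10, limma adjusted p = 0.148) and -0.76 for HSC + TBI (-1.44 to -0.07, limma adjusted p = 0.213). HSC + TBI and TBI rats differed by 0.03, with a 95% confidence interval from -0.66 to 0.71. Within each rat, the log2 signal of Cd3d exceeded that of Cd3g by 1.33, 1.64 and 1.63 in controls, by 5.14, 3.17 and 4.75 in TBI rats and by 4.92, 5.31 and 5.38 in HSC + TBI rats. The widths themselves depend on the probes, so only their change between groups is compared. The gap was wider in every irradiated rat than in any control. As Cd3g was below background in TBI rat 1 and in all HSC + TBI rats, its size there is not established, and as the pair was chosen after its values were seen, no test is given.

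The starts of Cd3g and Cd3d are 1601 bases apart on opposite strands in the GRCr8 assembly, and their promoters are shown because the differences of these 2 neighbours from control were of unequal size. The RefSeq windows run from 250 bases before to 50 bases after the start, here chr8:54183869-54184168 on the minus strand for Cd3g and chr8:54185269-54185568 on the plus strand for Cd3d. Capitals mark AGGAAG, the core letters bound by ETS factors, and TGTGGT, those bound by RUNX factors, on either strand, so that they also appear as CTTCCT and ACCACA.
Cd3g: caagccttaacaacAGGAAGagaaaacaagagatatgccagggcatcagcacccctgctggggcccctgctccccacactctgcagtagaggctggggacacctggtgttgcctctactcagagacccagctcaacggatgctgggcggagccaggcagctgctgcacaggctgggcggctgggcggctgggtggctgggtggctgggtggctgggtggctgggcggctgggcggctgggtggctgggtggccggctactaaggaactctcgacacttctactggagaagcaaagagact
Cd3d: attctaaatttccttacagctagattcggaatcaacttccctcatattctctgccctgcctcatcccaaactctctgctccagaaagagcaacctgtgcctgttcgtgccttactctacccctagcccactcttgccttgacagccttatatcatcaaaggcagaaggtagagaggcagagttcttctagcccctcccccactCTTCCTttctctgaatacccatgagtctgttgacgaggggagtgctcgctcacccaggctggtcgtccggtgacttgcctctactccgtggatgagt
Each window held 1 ETS core and no RUNX core. Across the 10 windows of the 9 members (Lck has 2 starts), 8 held the ETS letters, which occur in 34.5% of the 33469 rat promoter windows, and 3 held the RUNX letters, which occur in 17.3%. TATAAA, the letters of a TATA box, was in none of the 10 and in 14.2% of all windows. The searched motifs share no letters in these windows, and a match is a description of sequence and not of binding.

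Cd3e, the epsilon chain gene, read 2.76, 3.28 and 3.38 in controls, 1.31, 1.80 and 1.25 in TBI rats and 1.29, 1.30 and 2.09 in HSC + TBI rats. The controls lay above all irradiated rats, but every reading was below the background limit, so no fold is given. The scanner software's own error on this probe was 30.8 to 99.9% of the signal. With no filter on dim probes, Cd3e would be called in both comparisons with control (limma adjusted p = 0.0207 and 0.0447). Cd247, the zeta chain gene, was likewise below background on all 9 arrays.

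Cd2 encodes an adhesion molecule of T and natural killer cells that strengthens contact with the partner cell. Its log2 signal was 5.40, 4.97 and 5.17 in controls, 1.16, 1.15 and 1.85 in TBI rats and 4.76, 3.41 and 3.4 in HSC + TBI rats. The 3 groups did not overlap, with HSC + TBI rats between the others. The probe was above background in all controls, in no TBI rat and in HSC + TBI rat 1 alone of its group. Cd2 fell by 3.79 after TBI (SE 0.37, limma adjusted p = 0.00123), at least 5.13-fold, and this call was made without any 1 rat. With normexp the difference was -0.49 (limma adjusted p = 0.00596), under the fold minimum of 1.5, and was not called. The difference of HSC + TBI from control was -1.32 (95% confidence interval -2.16 to -0.48, limma adjusted p = 0.0956) and was called when HSC + TBI rat 1, but no other rat, was left out (-1.77, limma adjusted p = 0.0182).

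Cd2 was the member that differed between the irradiated groups. It was 2.47 higher in HSC + TBI than in TBI rats (SE 0.37, limma adjusted p = 0.0306). As the probe was above background in 1 of these 6 rats, it was tested because of its signal in controls, and no fold is given. The call was lost without any one of control rats 1 to 3, TBI rat 2 or HSC + TBI rat 3, where the difference ranged from 2.02 to 2.71 over all leave-outs and the adjusted p reached 0.0978. The result rests on readings near the background limit. With normexp the difference was 0.23 (limma adjusted p = 0.204). In this comparison 59 probes were called higher and 143 lower, against 38 and 239 with scaling to the 75th percentile and 4 and 2 with normexp. The Cd2 window, at chr2:191412610-191412909 on the minus strand of GRCr8, is shown because Cd2 was the member called between the irradiated groups. It held 2 RUNX cores and, like the Cd8a window, no ETS core.
Cd2: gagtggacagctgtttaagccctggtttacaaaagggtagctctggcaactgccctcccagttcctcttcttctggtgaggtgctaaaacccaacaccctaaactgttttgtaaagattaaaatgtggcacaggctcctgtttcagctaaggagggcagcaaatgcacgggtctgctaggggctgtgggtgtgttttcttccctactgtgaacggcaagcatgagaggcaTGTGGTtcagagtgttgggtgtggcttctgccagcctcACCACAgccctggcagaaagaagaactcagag

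Cd5, a scavenger-family receptor that dampens T cell receptor signals, read between 1.46 and 1.61 in controls, 1.49 and 2.18 in TBI rats and 1.48 and 2.57 in HSC + TBI rats. All of these were below background and the groups overlapped. Cd8a encodes the alpha chain of the CD8 coreceptor. It read 5.27, 6.03 and 5.81 in controls, 3.60, 5.29 and 5.53 in TBI rats and 4.19, 3.57 and 4.43 in HSC + TBI rats. TBI rat 1 alone of its group lay below every control, whereas all HSC + TBI rats did, and HSC + TBI rat 2 was not above background. No comparison of Cd8a passed the test. The differences from control were -0.90 for TBI (95% confidence interval -2.0 to 0.21, limma adjusted p = 0.287) and -1.64 for HSC + TBI (-2.75 to -0.54, limma adjusted p = 0.111), the latter called when TBI rat 1 was left out (limma adjusted p = 0.0217). HSC + TBI and TBI rats differed by -0.74 (-1.85 to 0.36, limma adjusted p = 0.492).

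Lck, the kinase that starts the cascade, was the tested member with a higher mean in both irradiated groups, and it passed no test. It read 4.08, 4.95 and 4.76 in controls, 4.94, 4.92 and 5.58 in TBI rats and 4.74, 5.17 and 5.12 in HSC + TBI rats, with overlap among all groups. Only control 1 was not above background. The differences were 0.55 for TBI against control (95% confidence interval -0.06 to 1.16, limma adjusted p = 0.24) and 0.41 for HSC + TBI against control (-0.20 to 1.02, limma adjusted p = 0.442). Between irradiated groups the difference was -0.14 (-0.75 to 0.47, limma adjusted p = 0.835).

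Zap70, the kinase recruited to the phosphorylated chains, read 6.75, 7.72 and 7.08 in controls, 5.75, 7.12 and 6.81 in TBI rats and 5.61, 5.46 and 5.61 in HSC + TBI rats. TBI rats 2 and 3 lay within the range of the controls, while the HSC + TBI rats were tightly grouped below every rat of the other groups. Zap70 was lower in HSC + TBI rats than in controls by a log2 difference of -1.62 (SE 0.36, limma adjusted p = 0.0487), a 3.07-fold lower signal. It passed narrowly, and leaving out control 2, control 3, TBI rat 3 or any HSC + TBI rat ended the call. TBI against control gave -0.62 (95% confidence interval -1.43 to 0.19, limma adjusted p = 0.316). HSC + TBI against TBI gave -1.0 (-1.81 to -0.18, limma adjusted p = 0.222), called when TBI rat 1 was left out (-1.40, limma adjusted p = 0.0355).

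Lat, the membrane adaptor on which the downstream enzymes assemble, was lower in both irradiated groups. It read 5.91, 6.60 and 6.63 in controls, 5.09, 5.29 and 5.53 in TBI rats and 5.05, 5.25 and 5.15 in HSC + TBI rats, above background in all 9. The lowest control was above the highest irradiated rat, and the irradiated groups overlapped. Lat fell by 1.08 after TBI (SE 0.21, limma adjusted p = 0.0185), 2.11-fold, and by 1.23 in HSC + TBI rats (SE 0.21, limma adjusted p = 0.0183), 2.34-fold. The TBI call was lost without control 2, control 3 or TBI rat 2 (limma adjusted p up to 0.0693), and the HSC + TBI call without control 2, control 3 or any HSC + TBI rat (up to 0.0825). With normexp both differences, -0.45 and -0.47, were under the fold minimum. The irradiated groups differed by -0.15, with a 95% confidence interval from -0.63 to 0.32. The Lat window, chr1:190372087-190372386 on the minus strand of GRCr8, held both cores close together just before the start, 2 ETS cores and 1 RUNX core in all.
Lat: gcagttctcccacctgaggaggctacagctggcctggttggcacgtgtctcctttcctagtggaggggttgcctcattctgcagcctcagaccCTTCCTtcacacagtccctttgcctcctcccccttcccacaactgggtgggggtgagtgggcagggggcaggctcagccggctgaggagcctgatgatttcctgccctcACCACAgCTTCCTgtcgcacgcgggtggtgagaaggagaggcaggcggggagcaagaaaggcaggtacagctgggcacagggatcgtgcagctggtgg

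**Figure D2:**
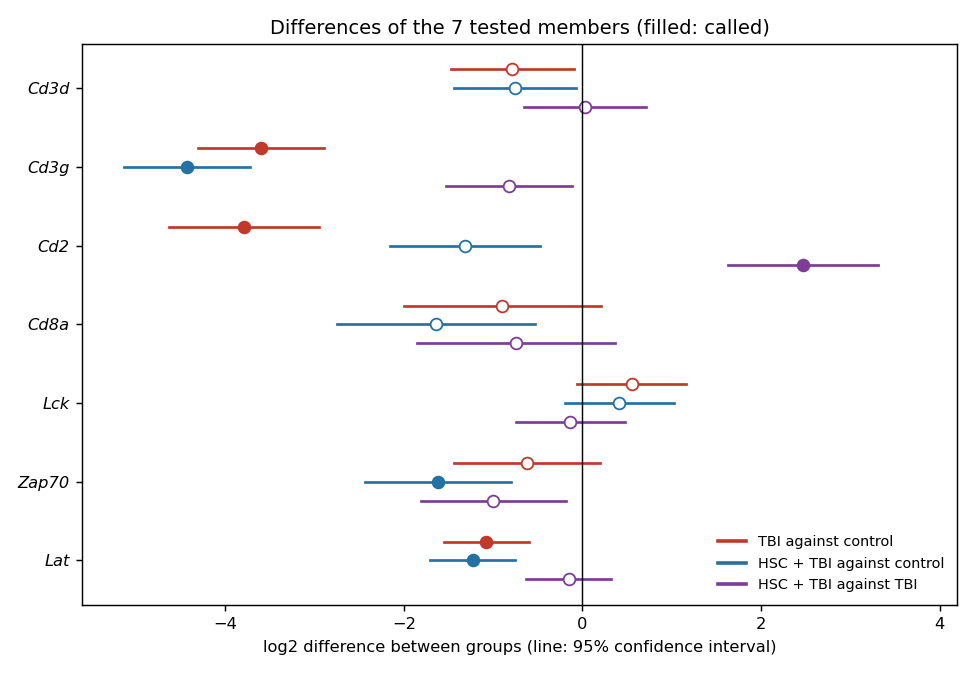
Log2 difference between groups for the 7 tested members (points) with 95% confidence intervals (lines), with 3 comparisons per gene; filled points were called. Cd3g and Cd2 lie at -3.60 and -3.79 for TBI against control, Cd2 alone is filled for HSC + TBI against TBI at 2.47, and the intervals of Lck include 0 in all 3 comparisons.

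Averaged over the 7 tested members after each was centred on its own mean, the 3 controls stood at 0.70, 1.23 and 1.04. TBI rats 1 to 3 stood at -0.94, -0.39 and -0.08, and HSC + TBI rats at -0.44, -0.53 and -0.59. The TBI rats were thus spread more widely than the HSC + TBI rats, with TBI rat 1 lowest of all. The average includes Cd3g and Cd2, which were mostly below background in irradiated rats. Lat was closest to this mean profile (mean absolute difference 0.17 over 9 rats), and Cd3g (1.13), Cd2 (1.08) and Lck (0.87) were farthest. Of all named genes outside the 9, Cd6 was nearest (0.11). Cd6 encodes a receptor of T cells related to Cd5. Among the next nearest were Rad51ap1 (0.16), of DNA recombination, Pkmyt1 (0.18), a kinase that restrains entry into mitosis, Nat8f5 (0.19), Kif20b (0.20), a mitotic kinesin, Irgm (0.20), an interferon-induced GTPase, Spats2l (0.21), Lrrc4 (0.21) and Ifi44l (0.21), an interferon-induced gene.

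**Figure D3:**
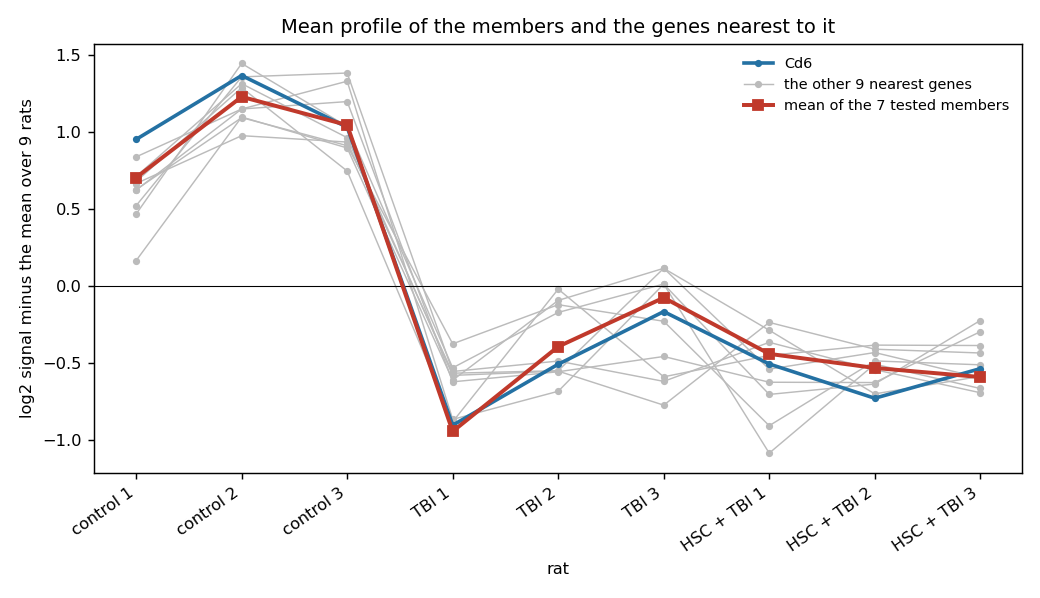
Log2 signal minus the mean over 9 rats (vertical axis) in each rat (horizontal axis), for the mean of the 7 tested members, for Cd6 and for the other 9 nearest genes (grey). The controls lie between 0.70 and 1.23 in the mean of the members and the irradiated rats between -0.94 and -0.08; the nearest genes were picked for this likeness.

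The wider pathway was read from 65 further genes, of which 48 had a probe and 30 were tested. After TBI 1 was called higher and 2 lower, after HSC + TBI 3 were lower than control, and 1 was lower in HSC + TBI than in TBI rats. The shares of all tested probes called in those directions were 3.54, 3.71, 2.05 and 0.564%, so after TBI the counts are near the background. Their median differences were 0.06, -0.38 and -0.53. Among 14 tested genes of the receptor-proximal steps, the called ones included Cd6, lower than control in both irradiated groups, and Ptpn22, lower in HSC + TBI rats. Cd6 read 6.93, 7.34 and 7.01 in controls, 5.08, 5.47 and 5.82 in TBI rats and 5.48, 5.25 and 5.45 in HSC + TBI rats, with all irradiated rats below all controls. It fell by 1.64 after TBI (limma adjusted p = 0.00305) and by 1.70 in HSC + TBI rats (limma adjusted p = 0.0034), called without any 1 rat, although a second Cd6 probe was below background on all arrays.

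Ptpn22, a phosphatase that opposes Lck and Zap70, was lower in HSC + TBI rats (limma adjusted p = 0.0375), where it was not well above background in any rat, by at least 4.70-fold. It was tested because of its signal in controls. Its controls were spread from 4.51 to 8.07, and the call was made in 3 of 9 fits with 1 rat left out.

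Cd8b encodes the beta chain that pairs with the product of Cd8a. It read 5.95, 6.03 and 6.82 in controls, 6.91, 7.48 and 6.75 in TBI rats and 5.39, 5.49 and 5.53 in HSC + TBI rats. HSC + TBI rats lay below all others, and the controls and TBI rats overlapped. The difference from control was 0.78 for TBI (limma adjusted p = 0.105) and -0.80 for HSC + TBI (limma adjusted p = 0.14). Only HSC + TBI against TBI was called, at -1.58 (limma adjusted p = 0.0434), in 3 of 9 fits with 1 rat left out. Cd4, the other coreceptor, differed by 0.71, -0.13 and -0.84 in the 3 comparisons (limma adjusted p = 0.26, 0.884 and 0.299). Of 12 tested downstream genes, among them calcineurin, NFAT and NF-kB components, Jun alone was called. This AP-1 subunit, made in most tissues, was 2.28 higher after TBI (limma adjusted p = 0.0435), in 2 of 9 fits with 1 rat left out. The 4 other tested T cell genes, Il7r, Il2ra, Il2rb and Ccr7, had no call by limma in the 3 comparisons.

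Markers of other lymphocytes and leukocytes also differed between groups, and their part in the results above was not tested. Of 12 listed B cell genes 8 had a probe and 4 were tested, and of these Cd79b, a chain of the B cell receptor, was lower after TBI (-2.91, limma adjusted p = 0.00317, at least 4.97-fold) and after HSC + TBI (-3.26, limma adjusted p = 0.0026, at least 2.90-fold). The other 3 were not called in either, with 0.55 for Cd22, -0.47 for Blnk and -0.41 for Bank1 after TBI, and the medians of the 4 were -0.44 and -1.17. Cd79b was tested because of its signal in controls and was above background in no irradiated rat. With normexp its difference after TBI was -0.32 (limma adjusted p = 0.0677) and was not called. For HSC + TBI against control its smallest difference under the other settings was -0.38. Of 7 tested natural killer cell genes, all 7 were below control in both irradiated groups, with medians of -0.51 and -1.72. Of these 1, the activating receptor gene Klrk1, was called, at -2.20 in HSC + TBI rats (limma adjusted p = 0.0234). The mean level of this list was 7.03 to 8.20 in controls, 6.14 to 7.71 in TBI rats and 5.57 to 6.32 in HSC + TBI rats. The 8 tested genes of leukocytes in general had medians of 0.07 for TBI and -1.18 for HSC + TBI, and Coro1a, an actin regulator of leukocytes, was called in both (-1.29 and -2.49, limma adjusted p = 0.0123 and 0.000998). Their mean level was 8.22 to 9.18 in controls, 8.02 to 9.06 in TBI rats and 7.37 to 7.52 in HSC + TBI rats.

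For comparison, the mean level of the 7 tested members was 6.12 to 6.64 in controls, 4.47 to 5.34 in TBI rats and 4.82 to 4.97 in HSC + TBI rats. This mean includes Cd3g and Cd2, which were mostly below background in irradiated rats. They differed by -3.60 and -3.79 for TBI against control, and the other tested members by -1.08 (Lat) to 0.55 (Lck). Median differences of the other marker lists for TBI and HSC + TBI against control were 0.46 and -0.18 for 9 macrophage and Kupffer cell genes. They were 0.19 and -0.71 for 4 genes listed as neutrophil markers, 0.14 and -0.48 for 4 erythroid genes and 0.03 and 0.10 for 10 hepatocyte genes. Of the neutrophil list, Ly6g6d is not an established neutrophil marker. The others tested differed by -0.08 (S100a8), 0.46 (S100a9) and -0.96 (Ngp) after TBI. Calls among these were single genes that were higher after TBI: Ly6g6d (1.02, limma adjusted p = 0.0323), the red cell membrane gene Epb42 (1.42, limma adjusted p = 0.0474) and Tat (1.53, limma adjusted p = 0.0287). Ly6g6d was called in 2, Epb42 in 1 and Tat in 5 of 9 fits with 1 rat left out, and other genes of their lists were below control after TBI without a call, such as Hbb (-1.30) and Alas2 (-1.15) of the erythroid and Ngp (-0.96) of the neutrophil list. In HSC + TBI against TBI, where Cd8b was called, the medians were -1.30 for the natural killer cell genes (7 of 7 below 0), -1.21 for the leukocyte genes (8 of 8) and -0.86 for the macrophage and Kupffer cell genes (8 of 9), and their part in the Cd8b value was not tested.

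**Figure D4:**
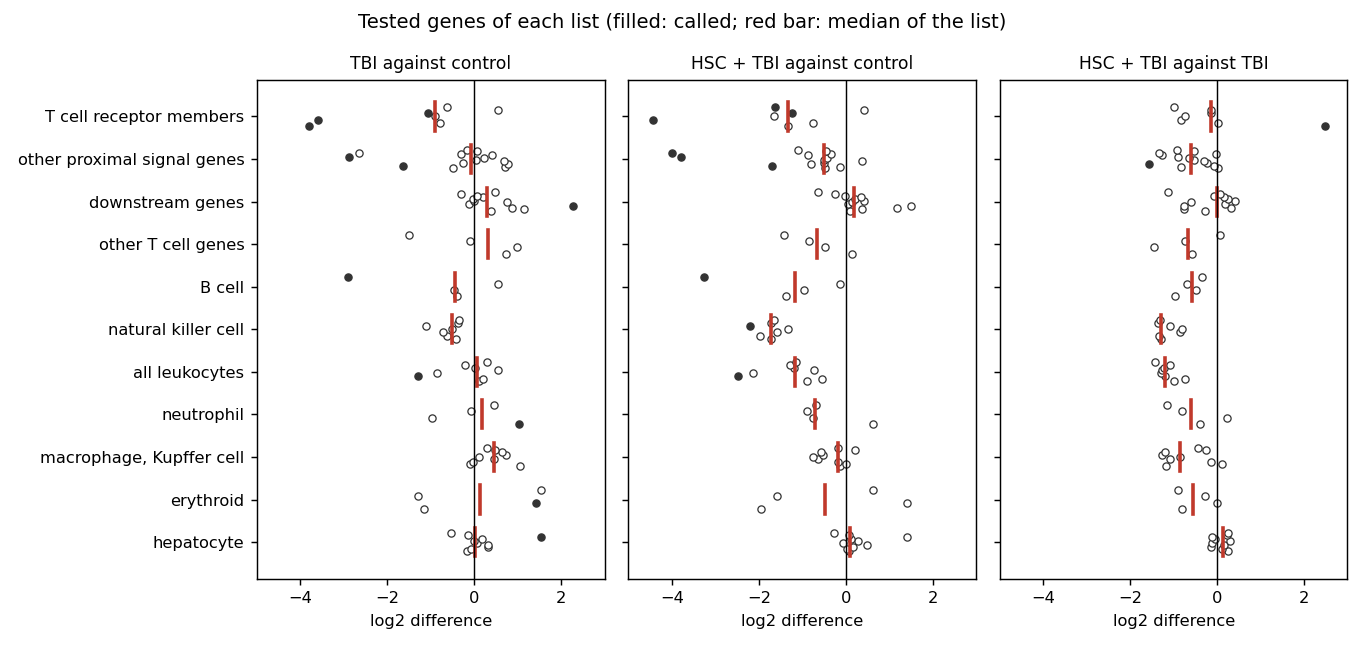
Log2 difference of each tested gene (points, filled where called) in 11 lists, with the median of each list (red bar), with a panel for each comparison. The members have the lowest median of the lists for TBI against control, at -0.90. For HSC + TBI against control the natural killer cell genes, at -1.72, lie lower than the members, at -1.32. The members were chosen with earlier results of these data known, so their rank only describes them. Among them Cd3g and Cd2 were tested because of their signal in controls.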

How the data were processed

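Raw scans of 9 arrays were made with Feature Extraction 10.7.3.1 per the file headers, and the deposited processed signal is an intensity per spot, background-corrected by that software. The deposited series table holds the authors' quantile-normalised log2 values, made in GeneSpring per the methods, and served as an alternative; the values used here differed from it by a median of 0.0290 to 0.0317 log2 per array. Signals were floored at 1, log2-transformed, cleared of 84 to 115 outlier spots per array (no spot was saturated), quantile-normalised (limma 3.58.1, R 4.3.3) and, for each of 41012 probes, averaged over its spots. A probe counted as above background where over 0.5 of its spots were flagged so, and 25369 probes above background on all 3 arrays of a group were tested in 1 limma fit of 3 group means. The number of arrays limits the precision. Nothing states whether the 3 samples of a group were processed apart, beyond coming from separate rats.

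Of the probes, 16968 were named by RefSeq accession (table of assembly GRCr8). A gene's brightest probe was used. Genes named in the text were all 9 members, called genes of the pathway lists (with Cd247, Cd4 and Cd8b in any case), up to 3 called markers per other cell type and the 10 genes nearest the members' mean profile. Some genes that this rule would name are not reported here. The members and lists were chosen with earlier results of these data known. "At least" folds set the brighter group's mean against the lowest signal above background on each array of the dimmer group, or the probe's own where higher. They are approximate, since some probes with a higher signal than that lowest one were not above background. An example is Lck in control 1, at 4.08 against 3.97. The fit was tested on simulated data. Alternatives were normalisation, background correction, filters, probe choice, the methods' t-test, slide and replicate blocks, and leaving out each rat.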

Additional observations from a re-analysis of the deposited data

Results flagged for a closer look

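In 2 genes the changes after irradiation with and without HSC differed by the direct test of HSC + TBI against TBI. Cd2 was higher with HSC, by 2.47 on the log2 scale (limma adjusted p = 0.0306), with each of the 3 HSC + TBI rats above each of the 3 TBI rats. Only 1 of these 6 rats was above background for Cd2, the call was made in 4 of 9 fits with 1 rat left out, and with normexp the difference was 0.23 and not called. Cd8b was lower with HSC, with a log2 difference of -1.58 (limma adjusted p = 0.0434) and each of the 3 HSC + TBI rats below each TBI rat. This call was made in 3 of 9 fits with 1 rat left out, and natural killer cell and general leukocyte genes had medians of -1.30 and -1.21 in the same comparison.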

How the results depend on the processing

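Counts stand in the order of the report (each irradiated group against control, then the irradiated groups against each other), first for the members (3, 3 and 1 as reported) and then for the other pathway genes (3, 3 and 1). The authors' values, the 75th percentile, keeping outlier spots and no minimum fold gave the reported counts. Normexp gave 1, 2 and 0, then 2, 1 and 0, and so did keeping only probes above background on all 9 arrays, which left 3 members to test. No filter gave 4, 3 and 0, then 3, 3 and 0. Fitting 2 groups alone gave 2, 4 and 0, then 2, 4 and 0. The methods' t-test gave 3, 6 and 1, then 5, 6 and 2 without adjustment, and 1, 1 and 0, then 0, 0 and 0 with it. Over all probes in TBI against control, 1839 of 25369 were called as reported. This became 665 with normexp, 1396 of 21750 above background on all 9 arrays and 1790 of 41012 without a filter. It was 1178 of 25269 with 2 groups alone. The t-test called 2565 of 25369 without adjustment and 145 with it. The counts above are to be read beside these totals. Slide as a random block gave 6, 6 and 3, then 11, 9 and 6, at an estimated correlation within slides of -0.327. As every slide held rats of 1 group only, this block cannot adjust for slide. The negative correlation lowers the standard errors, for Cd3d in TBI against control from 0.301 to 0.162. Calls over all probes in that comparison rose from 1839 to 4528, so the higher counts add no support. The second brightest probe left the members as they were, since each has 1 probe, and gave 2, 1 and 1 for the other genes. Leaving out each rat gave 2 to 3, 1 to 4 and 0 to 3 members, then 2 to 5, 2 to 4 and 0 to 7 others, with the highest counts of the last comparison without TBI rat 1. The cause of the other shifts was not tested.

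The replicate block gave 3, 3 and 0, then 2, 2 and 0. The records link rats of different groups by nothing beyond a replicate number. Deviations of same-numbered rats correlated at 0.191, 0.117 and 0.0975 for TBI and control. The correlations were 0.000882 to 0.0147 for HSC + TBI and control and -0.143 to -0.0161 for both irradiated groups. The best match was the own number in 3, 0 and 0 of 3 rats. What same-numbered TBI and control rats might share was not tested. The sign turned for HSC + TBI against TBI in Cd3d (0.03 as reported), at -0.014 by the methods' t-test with or without adjustment, -0.0217 with slide as a block and -0.274 to 0.293 when leaving out each rat, and in Lck, at -0.249 to 0.0807 when leaving out each rat. Cd3g against control was called in HSC + TBI rats under all 11 other settings that gave a value, and in TBI rats under 10 of 11, the exception being the methods' adjusted test. These settings include the slide block, which adds no support, and no minimum fold, which reuses the reported fit and cannot undo a call. The 3 rats of each group limit the precision, and the readings of Cd3e, Cd5, Cd2 and Cd3g in irradiated rats were mostly below background, where a difference is a bound at most.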

Other observations

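Genes that lie around the CD3 genes on the chromosome were taken by position alone from the order of genes in GRCr8, and their differences in TBI against control follow. Ube4a, next to Cd3g, differed by 0.01 (limma adjusted p = 0.974), and beyond it Atp5mg by -0.35 (limma adjusted p = 0.104), Kmt2a by -0.11 (limma adjusted p = 0.671) and Ttc36 by 0.33 (limma adjusted p = 0.148). On the side of Cd3e, the adhesion gene Mpzl2 was lower by a log2 difference of -1.20 (limma adjusted p = 0.0386), and Mpzl3 differed by 0.31 (limma adjusted p = 0.452).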
